A study of Mus musculus with 8 samples.

Results

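A set of 50 cell cycle and proliferation genes was followed from mouse embryonic stem cells to embryoid bodies at day 6 of differentiation. Their symbols were matched to the gene names in the array scanner files, where all 50 had a probe among the 34736 gene names measured. The set holds 12 genes of S phase (DNA synthesis), 13 of mitosis and the late cycle, 15 cyclins, cyclin-dependent kinases (Cdks) and Cdc25 phosphatases, 4 Cdk inhibitors and 6 transcriptional regulators. All 50 were well above background on all 8 arrays, so every member was tested.

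The cells were wild type or heterozygous for R141C, a missense change in Nkx2-5, a homeobox factor of the developing heart. Each genotype was sampled as undifferentiated stem cells (day 0) and after 6 days as embryoid bodies grown in medium without the cytokine LIF. The bodies spent 2 days in hanging drops of 800 cells and 3 days in suspension, and were plated on gelatin at day 5 for 24 hours. RNA of each culture went to 1 single-colour Agilent array, with 2 biological replicates in each of the 4 groups. The labels name no cell line or clone and no feeder layer, and the arrays do not read the R141C allele, so genotypes are those of the labels.

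The cell cycle is driven by Cdks, which are active only when bound to a cyclin and are held back by Cdk inhibitors. D-type cyclins with Cdk4 or Cdk6 and cyclin E with Cdk2 phosphorylate the Rb family, which releases E2F factors to transcribe the genes of S phase, while cyclin B with Cdk1 drives mitosis. Mouse embryonic stem cells are known for a short G1 phase, high cyclin E activity and low levels of several Cdk inhibitors, and their cycle lengthens as they differentiate.

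Day 0 and day 6 cultures carried different marker genes. Markers were counted as lower or higher at day 6 where the adjusted p in limma was under 0.05. Of 10 markers of the undifferentiated state (Pou5f1, Nanog, Zfp42 and others), 10 were lower in wild type and 9 in R141C. All 10 differences were below 0 in both genotypes. Of 9 heart markers, 8 were higher in wild type and 4 in R141C, where 7 differences were above 0. Over all genes, 11% were higher and 12.9% lower in wild type, and 7.6% and 8.03% in R141C. All 5 blood and all 5 endoderm markers were also higher at day 6 in each genotype. Their median log2 differences were 9.99 and 7.13 in wild type, against 6.74 for heart. In R141C they were 9.75 and 6.6, against 2.77 for heart. Of 5 endothelial markers, 3 were higher in each genotype, and of 5 neural markers 0 were. The heart markers were uneven between the R141C cultures at day 6, with a summed signal of 14.2 in replicate 1 and 110 in replicate 2, against 263 and 330 in wild type, in units of the 75th percentile of each array. Across all 50 cell cycle genes the replicates differed by a median of 0.33, 0.38, 0.13 and 0.26 on the log2 scale in wild type day 0, R141C day 0, wild type day 6 and R141C day 6. All arrays shared 1 slide and 1 scan, with each group in its own positions, so position and group cannot be told apart. Precision is limited by the number of arrays.

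The sequences before the transcription start are shown for 4 of the members that changed (Ccne1, Mycn, Ccnb1 and Cdkn1b), since E2F and the complexes that act on mitotic genes bind there, and for Mcm6 as a helicase gene with several E2F matches. Each is the 250 bases upstream of the RefSeq start on GRCm38.p6, read 5′ to 3′ on the strand of the gene. Capitals mark matches on either strand to E2F motifs (TTTCCCGC, TTTCGCGC, TTTGCCGC or TTTGGCGC), to the cell cycle homology region, CHR (TTTGAA or TTTAAA), and to CCAAT. Matches that overlap run together.

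Ccne1 (chr7:38107491-38107740, minus strand): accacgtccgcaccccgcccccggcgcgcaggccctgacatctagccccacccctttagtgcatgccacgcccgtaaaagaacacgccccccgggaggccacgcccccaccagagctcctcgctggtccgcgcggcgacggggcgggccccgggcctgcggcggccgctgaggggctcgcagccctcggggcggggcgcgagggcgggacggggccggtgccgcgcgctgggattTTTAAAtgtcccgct
Mycn (chr12:12941837-12942086, minus strand): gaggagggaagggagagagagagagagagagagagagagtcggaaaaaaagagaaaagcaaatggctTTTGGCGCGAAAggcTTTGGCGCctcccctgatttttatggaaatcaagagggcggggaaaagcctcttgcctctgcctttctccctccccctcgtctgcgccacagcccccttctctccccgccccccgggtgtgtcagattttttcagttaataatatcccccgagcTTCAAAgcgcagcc
Ccnb1 (chr13:100786487-100786736, minus strand): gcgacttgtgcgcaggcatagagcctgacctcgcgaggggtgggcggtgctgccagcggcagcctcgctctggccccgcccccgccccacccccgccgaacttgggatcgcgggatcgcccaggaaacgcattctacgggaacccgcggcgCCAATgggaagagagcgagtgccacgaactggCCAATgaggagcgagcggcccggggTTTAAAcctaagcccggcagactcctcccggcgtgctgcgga
Cdkn1b (chr6:134920151-134920400, plus strand): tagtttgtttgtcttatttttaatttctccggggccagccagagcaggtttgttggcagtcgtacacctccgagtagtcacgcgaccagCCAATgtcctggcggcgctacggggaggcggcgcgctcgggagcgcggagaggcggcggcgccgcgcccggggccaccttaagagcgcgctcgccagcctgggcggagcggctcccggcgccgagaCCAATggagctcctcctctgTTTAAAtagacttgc
Mcm6 (chr1:128359706-128359955, minus strand): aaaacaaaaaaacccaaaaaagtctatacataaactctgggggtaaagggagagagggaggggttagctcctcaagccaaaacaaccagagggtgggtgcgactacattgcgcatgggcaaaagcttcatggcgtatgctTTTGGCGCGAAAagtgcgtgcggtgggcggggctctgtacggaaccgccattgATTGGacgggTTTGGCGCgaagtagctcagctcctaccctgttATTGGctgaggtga

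Ccne1 held 1 CHR match, 15 bases before its start, and no match to E2F or CCAAT. Ccnb1 and Cdc20 each held 1 CHR and 2 CCAAT matches, and so did the window of the inhibitor gene Cdkn1b. Mycn and Mcm6 each had 3 E2F matches, some of them on opposite strands of the same bases.

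Promoter windows were found for 41 of the 50 genes. The missing 9 were Ccna2, Ccnd1, Ccnd2, Ccne2, Cdc25c, Aurkb, Mcm4, Myc and Rb1. An E2F motif was present for 9 of the 41 (22.0%, against 2.16% of 27025 genes in the table), in Cdc6, Mcm5, Mcm6, Mcm7, Cdk1, Cdk2, Cdc25a, Cdkn2a and Mycn. That made 4 of 11 S phase genes and 0 of 12 mitosis genes. A CHR match was present for 18 of 41 (43.9%, against 28.1%) and for 7 of 12 mitosis genes. CCAAT was present for 27 of 41 (65.9%, against 37.5%) and for 10 of 12 mitosis genes. The E-box CACGTG, which Myc proteins bind, was present for 3 of 41 (7.32%, against 6.86%), in Cdk4, Cdk6 and Tyms. A match describes the letters in the window and does not show a site in use.

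The arrays read each transcript through 60-base probes, and the probe sequences are shown for 3 cyclins on which the results turn. Positions are those of the array files on mm9, and the exon or untranslated region of each probe was not assigned here.

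Ccne1 probe A_66_P125327 (chr7:38885574-38885633, minus strand): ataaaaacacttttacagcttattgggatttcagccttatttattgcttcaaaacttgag
Ccnd2 probe A_52_P53906 (chr6:127098696-127098755, minus strand): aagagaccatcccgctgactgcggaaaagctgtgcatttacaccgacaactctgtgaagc
Ccnb1 probe A_55_P1952256 (chr13:101551224-101551283, minus strand): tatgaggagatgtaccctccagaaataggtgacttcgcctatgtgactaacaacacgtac

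The Ccne1 probe shown is the second of its gene, and the values below come from the brighter one, A_51_P408946 (chromosome 7, from 38882937), of which the files place only a part on the genome. The sequence of the brighter probe is not shown. Values of both are given because they read the same transcript at separate places.

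Between the days in wild type, the members that passed the test with the largest changes were cyclins and a Cdk of the G1 phase, and in R141C they were Ccne1 and the inhibitor gene Cdkn1b. In wild type, 8 of the 50 genes passed the test, 1 higher at day 6 (Ccnd2) and 7 lower (Ccne1, Cdk6, Ccnd1, Mycn, Myc, Ccnb1 and Cdc20). Over all genes tested, 24% passed in this comparison (11% higher and 12.9% lower), so the share of the cell cycle genes that changed (8 of 50) was not above that of the transcriptome. In R141C, 4 of the 50 passed, Cdkn1b higher and Ccne1, Mycn and Ccnb1 lower, against 15.6% of all genes (7.6% higher and 8.03% lower). Tests were made with limma on log2 signals, with adjustment over 25892 genes and a threshold of 0.05.

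These counts depended on single arrays. In wild type, 4 genes passed without wild-type day 0 replicate 2, 2 once wild-type day 6 replicate 1 was left out and 1 once its other replicate was. In R141C, 2 passed without each of R141C day 0 replicate 2, wild-type day 6 replicates 1 and 2, and R141C day 6 replicate 1, and 1 without R141C day 0 replicate 1 or R141C day 6 replicate 2. Ccne1 passed each time in both genotypes, and no fold change of a gene that had passed moved by as much as 1.5 times.

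**Figure D1:**
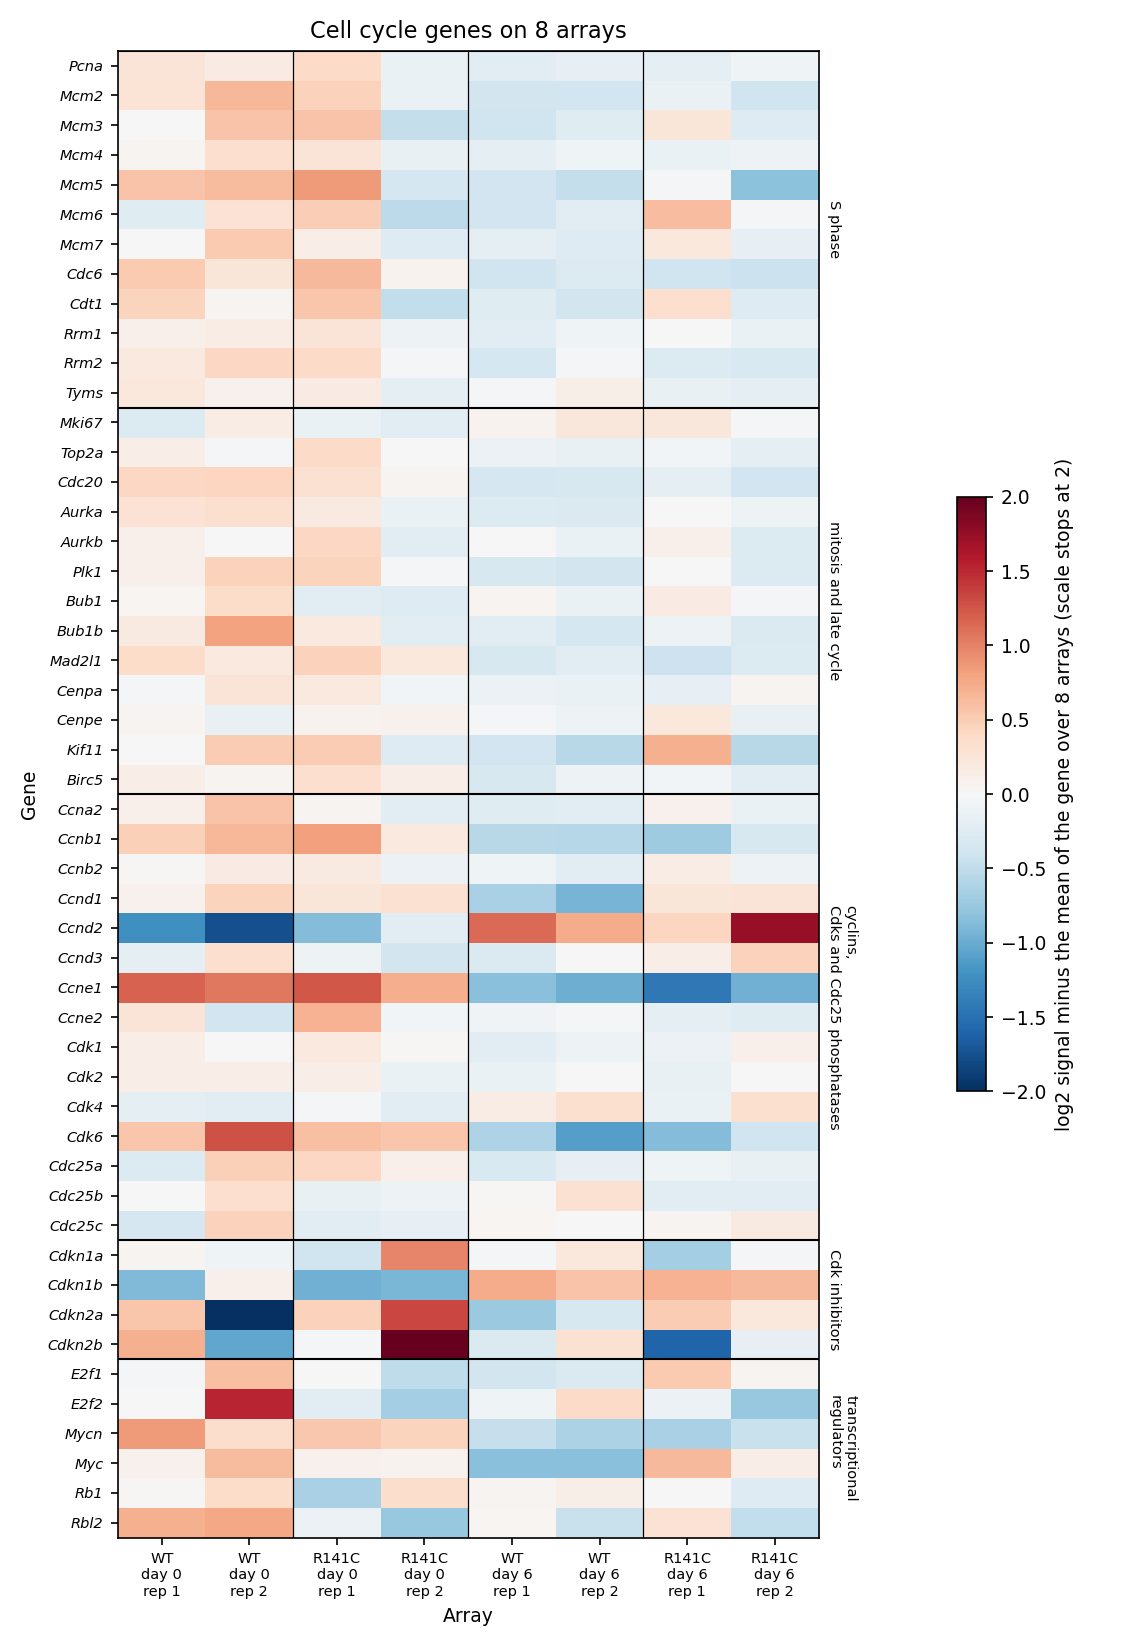
Log2 signal of each of the 50 genes (rows, by role) on the 8 arrays (columns), as the deviation from the gene's mean over all arrays; red is higher and blue lower, and the scale stops at 2. Ccne1, Ccnb1, Cdk6 and Mycn are red at day 0 and blue at day 6, Ccnd2 the other way, Cdkn1b likewise except on wild-type day 0 replicate 2, and most rows of S phase and mitosis are pale.

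Cyclin E1 (Ccne1), the partner of Cdk2 at entry to S phase, fell in both genotypes. Its log2 signal was 6.56 and 6.43 in wild type and 6.62 and 6.10 in R141C at day 0, and 4.54 and 4.40 in wild type and 3.95 and 4.41 in R141C at day 6. The lowest day 0 array was above the highest day 6 array by more than 1 log2 unit. The fall was 4.09-fold in wild type (log2 difference -2.03, SE 0.26, adjusted p in limma 0.00317) and 4.54-fold in R141C (-2.18, SE 0.26, adjusted p 0.0039). The second probe gave -2.39 and -2.79. Its paralog Ccne2 differed by 0.00 in wild type and -0.53 in R141C, with neither past the threshold.

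The 3 D-type cyclins, which sense growth signals and activate Cdk4 and Cdk6 in G1, did not move together. Ccnd2 was at 0.81 and 0.29 in wild type and 1.18 and 1.84 in R141C at day 0, and at 3.18 and 2.78 in wild type and 2.48 and 3.79 in R141C at day 6. All 4 day 6 arrays were above all 4 day 0 arrays. The rise was 5.39-fold in wild type (2.43, SE 0.47, adjusted p in limma 0.013), and R141C gave 1.62 (SE 0.47), which missed the threshold (adjusted p 0.0643). The R141C value rested on single day 6 arrays, with 2.28 (adjusted p in limma 0.0273) without replicate 1 and 0.97 (adjusted p 0.178) without replicate 2.

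Ccnd1 showed another pattern. It was at 3.72 and 4.08 in wild type and 3.87 and 3.94 in R141C at day 0, and at 2.99 and 2.71 in wild type but 3.87 and 3.90 in R141C at day 6. The wild-type day 6 arrays were the lowest of the 8, and the R141C day 6 arrays lay within the range of day 0. Ccnd1 fell 2.07-fold in wild type (-1.05, SE 0.21, adjusted p in limma 0.0153), and the difference between the days was -0.02 in R141C (SE 0.21, adjusted p 0.965). Ccnd3 differed by -0.22 in wild type and 0.54 in R141C, with neither past the threshold.

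Among the 4 kinases, Cdk6 passed in wild type and none passed in R141C. Its log2 signal was -2.72 and -1.99 in wild type and -2.67 and -2.72 in R141C at day 0, and -3.89 and -4.37 in wild type and -4.13 and -3.66 in R141C at day 6. Every day 6 array was below every day 0 array. The fall was 3.41-fold in wild type (-1.77, SE 0.32, adjusted p in limma 0.0104), and in R141C the difference of -1.20 (SE 0.32) lay just outside the threshold (adjusted p 0.0502, and 0.0361 when either of the wild-type day 0 arrays was left out). Cdk1, Cdk2 and Cdk4 differed by -0.22, -0.20 and 0.44 in wild type and by -0.11, -0.08 and 0.22 in R141C, with none past the threshold.

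Cyclin B1 (Ccnb1), which activates Cdk1 for mitosis, fell in wild type and passed narrowly in R141C. It was at 3.02 and 3.22 in wild type and 3.37 and 2.75 in R141C at day 0, and at 1.99 and 1.98 in wild type and 1.84 and 2.23 in R141C at day 6. The 2 days did not overlap in either genotype. The fall was 2.20-fold in wild type (-1.14, SE 0.27, adjusted p in limma 0.0253) and 2.04-fold in R141C (-1.03, SE 0.27, adjusted p 0.0467). The call in R141C was kept under 6 of 18 alternatives, with an adjusted p in limma of up to 0.193. A second Ccnb1 probe gave -0.97 in wild type but -0.30 in R141C. Ccnb2 and Ccna2, the other mitotic and S phase cyclins of the set, differed by -0.25 and -0.56 in wild type and by -0.01 and 0.06 in R141C, and the 3 Cdc25 phosphatases, which remove the inhibitory phosphates of Cdks, by -0.38 to 0.31 over both genotypes.

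**Figure D2:**
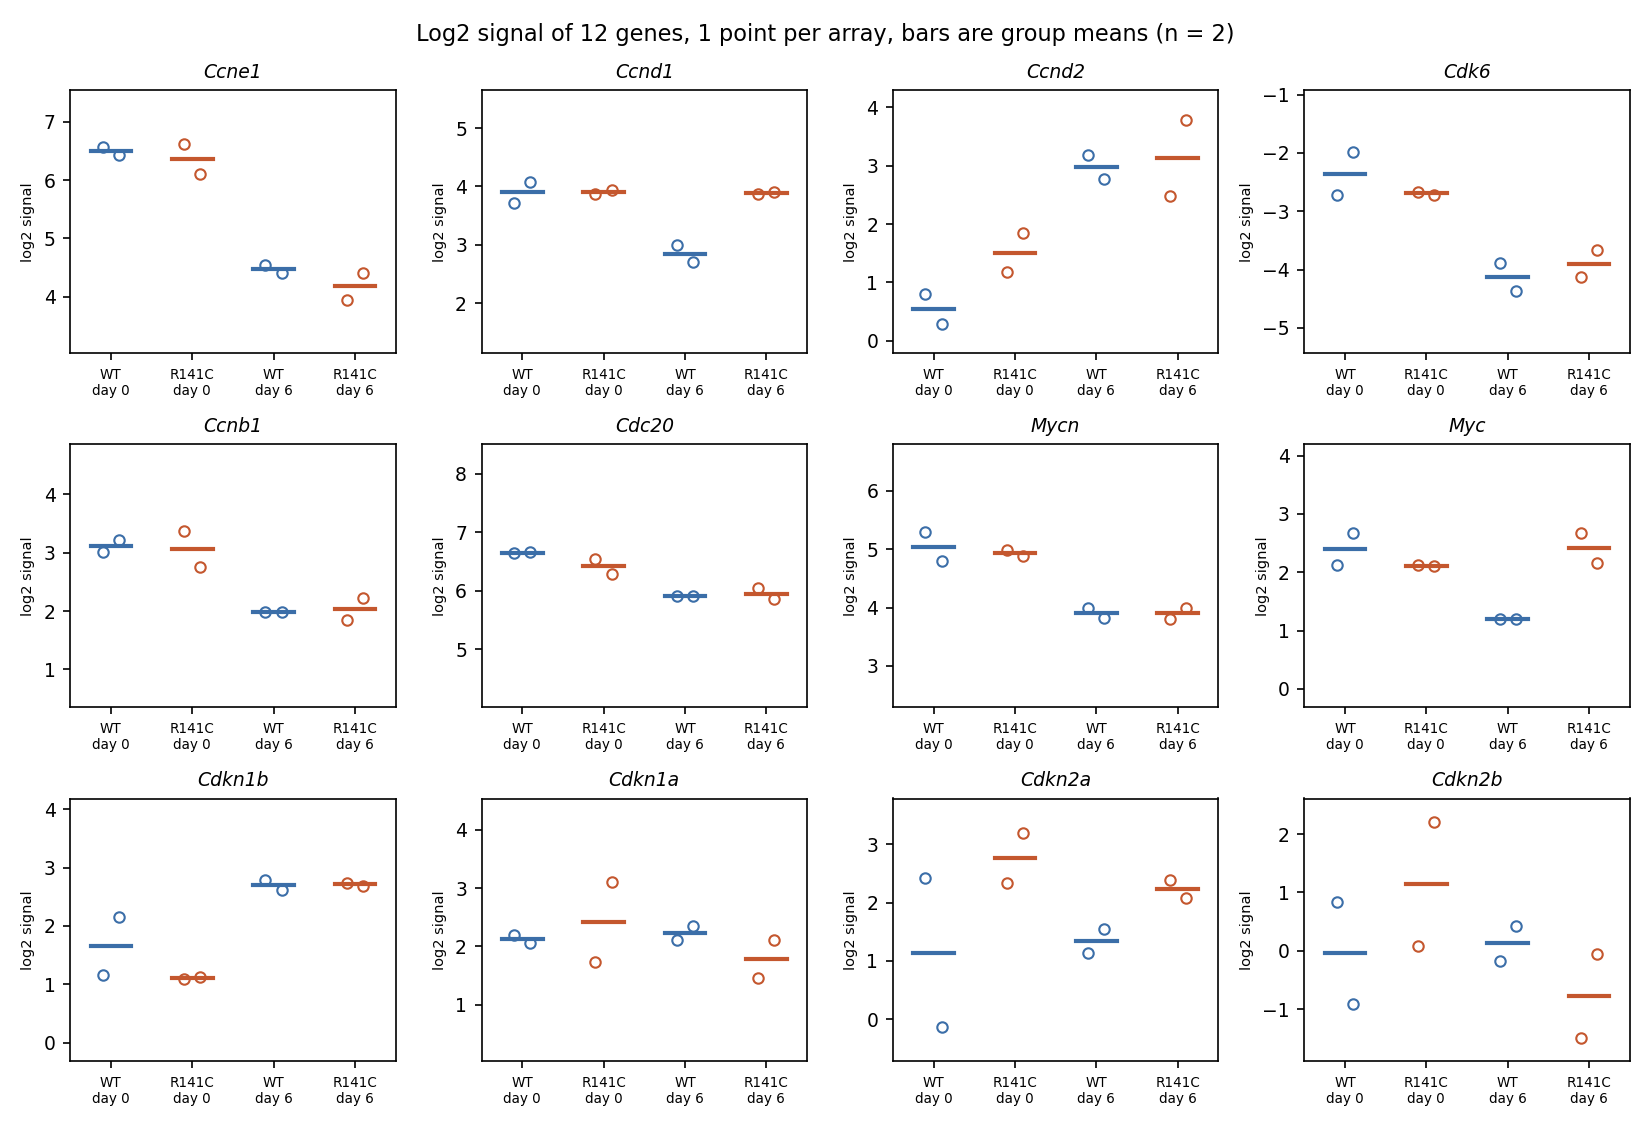
Log2 signal (vertical axis, the same span for each gene) of the 8 genes that passed a test between the days in wild type and of the 4 Cdk inhibitors; each circle is an array, and bars are means of 2 arrays. Ccne1 drops by about the same amount in both genotypes, whereas Ccnd1 and Myc are lowest on the wild-type day 6 arrays.

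The 12 genes of S phase had small differences, most of them below 0. They comprise the clamp Pcna, the 6 subunits of the Mcm2-7 helicase, its loaders Cdc6 and Cdt1, the 2 ribonucleotide reductase subunits (Rrm1 and Rrm2) and thymidylate synthase (Tyms). In wild type, 0 of the 12 passed in limma, with 3 at an unadjusted p under 0.05, although all 12 differences were below 0. They ran from -1.02 (Mcm5) to -0.10 (Tyms), with a median of -0.50, against a median of -0.12 over all genes. In R141C, 0 of the 12 passed in limma, with 1 at an unadjusted p under 0.05, and 9 were below 0, with a median of -0.16 against -0.03 over all genes.

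The S phase gene nearest the threshold was Mcm2, at 5.04 and 5.43 in wild type and 5.22 and 4.62 in R141C at day 0, and at 4.40 and 4.38 in wild type and 4.63 and 4.36 in R141C at day 6. The days did not overlap in wild type and did in R141C, where the lower day 0 array was below the higher day 6 array. The difference was -0.84 in wild type (SE 0.27, adjusted p in limma 0.0664) and -0.43 in R141C (SE 0.27, adjusted p 0.342). Cdc6 had the largest difference in R141C (-0.78, against -0.72 in wild type), but its other probe gave 0.75 in wild type and 0.21 in R141C, so the probes of Cdc6 disagree in sign.

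The 13 genes of mitosis and the late cycle also had small differences, most of them below 0. Cdc20, the activator of the anaphase-promoting complex, passed in wild type, and none passed in R141C, where 2 had an unadjusted p under 0.05 in limma. It was at 6.64 and 6.66 in wild type and 6.54 and 6.29 in R141C at day 0, and at 5.90 and 5.91 in wild type and 6.04 and 5.85 in R141C at day 6. The days did not overlap in either genotype, and the difference was -0.74 in wild type (1.67-fold, adjusted p in limma 0.0346) and -0.47 in R141C.

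Of the 13 mitosis genes, 11 were below 0 in each genotype, with a median of -0.31 in wild type and -0.18 in R141C. The aurora kinases Aurka and Aurkb differed by -0.58 and -0.12 in wild type, the polo kinase Plk1 by -0.63, and the checkpoint genes Bub1, Bub1b and Mad2l1 by -0.24, -0.77 and -0.56, with none past the threshold. Mki67, whose protein is the common stain for cycling cells, was at 4.41 and 4.83 in wild type and 4.54 and 4.45 in R141C at day 0, and at 4.75 and 4.90 in wild type and 4.91 and 4.64 in R141C at day 6. It was above 0 in both genotypes (0.21 and 0.28), with neither past the threshold, and the days overlapped in wild type. In bulk RNA, fewer cells of a type and less RNA per cell cannot be told apart.

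The difference between the days was under 1.5-fold in both genotypes for 28 of the 50 genes and under 2-fold for 40. The share of all genes under these limits was not counted, so the counts do not set the members apart. In wild type, the quartiles of the differences were -0.69 and -0.12 for the members and -0.61 and 0.37 for all genes. In R141C they were -0.46 and 0.05 for the members and -0.48 and 0.39 for all genes. The days did not overlap for 35 of the 50 in wild type (70%, against 71.3% of all genes), with day 6 higher for 3 and lower for 32 (29.8% and 41.5% of all genes). In R141C they did not overlap for 22 (44%, against 56%), higher for 8 and lower for 14 (25.6% and 30.4% of all genes). Of the 50 differences, 41 were below 0 in wild type and 34 in R141C. When arrays were set to equal medians, 36 were below 0 in wild type and 32 in R141C, and the median over all genes in wild type moved from -0.12 to 0.00.

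**Figure D3:**
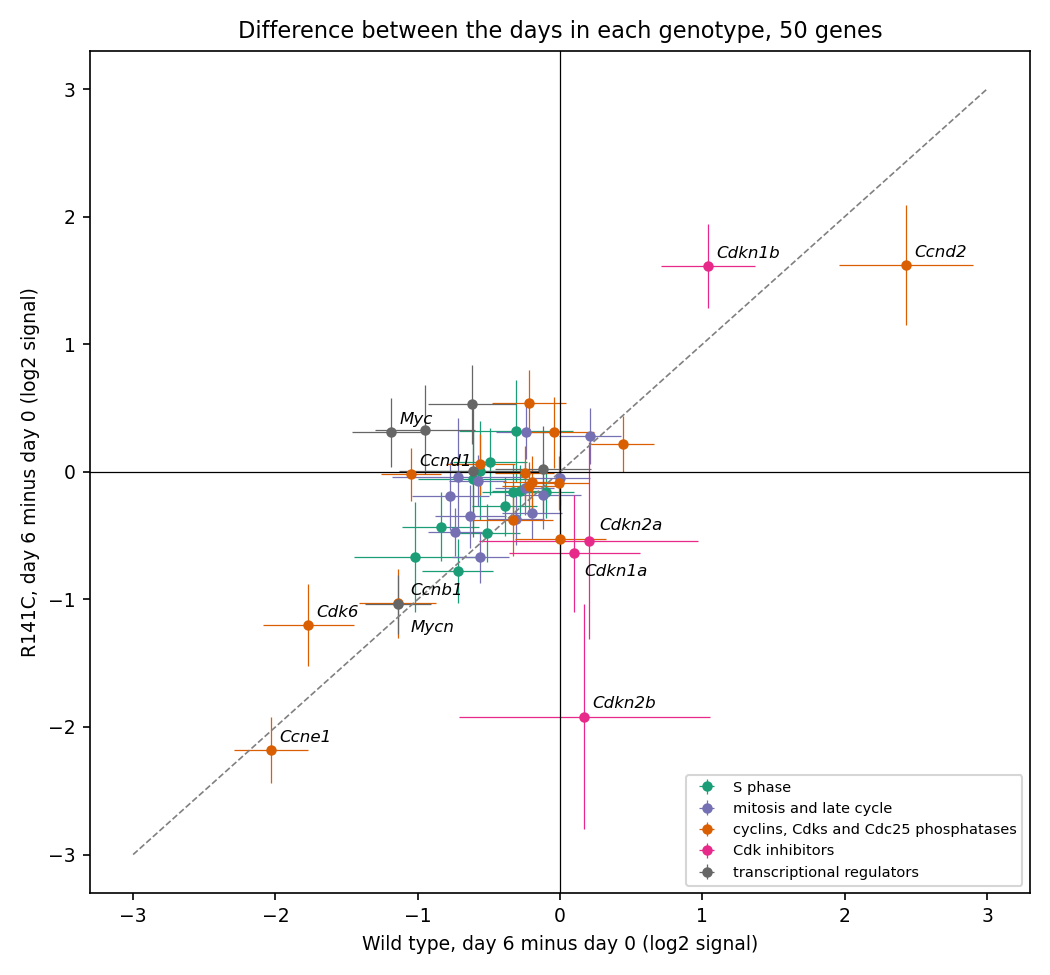
Difference between day 6 and day 0 in wild type (horizontal axis) and R141C (vertical axis), both in log2 signal, for the 50 genes coloured by role; bars are standard errors and the dashed line marks equal differences. Most genes lie within 1 unit of the origin, Ccne1 lies near -2 on both axes, and Myc and Ccnd1 lie near -1 on the wild-type axis and near 0 on the other.

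Of the 4 Cdk inhibitors, 0 passed between the days in wild type and 1 in R141C (Cdkn1b). Cdkn1b (p27), which binds cyclin E and Cdk2, was at 1.16 and 2.15 in wild type and 1.09 and 1.13 in R141C at day 0, and at 2.78 and 2.61 in wild type and 2.74 and 2.69 in R141C at day 6. All day 6 arrays were above all day 0 arrays, and wild-type day 0 replicate 2 stood above the other day 0 arrays. The rise was 3.05-fold in R141C (1.61, SE 0.33, adjusted p in limma 0.0216), and the wild-type difference of 1.04 (SE 0.33) missed the threshold (adjusted p 0.0613). That difference became 1.54 (adjusted p in limma 0.0128) when the high array was left out and 0.54 when its replicate was. A second Cdkn1b probe gave 1.1 in wild type and 1.30 in R141C.

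Cdkn1a (p21), a target of p53, was at 2.20 and 2.05 in wild type and 1.74 and 3.11 in R141C at day 0, and at 2.11 and 2.35 in wild type and 1.46 and 2.11 in R141C at day 6. The days overlapped in both genotypes, and the differences were 0.10 in wild type and -0.64 in R141C (SE 0.46, adjusted p in limma 0.897 and 0.39). Its 3 probes disagreed, with 1 giving 1.15 and 0.25 and another -0.38 and -1.01.

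Cdkn2a is the locus of p16 and p19Arf, and its neighbour Cdkn2b encodes p15. Cdkn2a had the largest replicate gap of the 50 genes in wild type day 0, and Cdkn2b had it in the other groups. Cdkn2a was at 2.42 and -0.13 in wild type and 2.33 and 3.20 in R141C at day 0, and at 1.13 and 1.55 in wild type and 2.38 and 2.08 in R141C at day 6. Cdkn2b was at 0.83 and -0.92 in wild type and 0.09 and 2.21 in R141C at day 0, and at -0.17 and 0.42 in wild type and -1.49 and -0.05 in R141C at day 6. The wild-type day 0 replicates of Cdkn2a differed by 2.55 and the R141C day 0 replicates of Cdkn2b by 2.11, the largest gaps among the 50 genes in those groups. The differences between the days were 0.20 and -0.54 for Cdkn2a and 0.17 and -1.92 for Cdkn2b, with adjusted p in limma of 0.196 or more.

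At day 0, Cdkn2a and Cdkn2b ranked the 4 arrays in the same order as the mean log2 signal of the fibroblast markers, which at day 6 neither gene did. The day 0 order was R141C replicate 2, wild-type replicate 1, R141C replicate 1 and wild-type replicate 2, where the mean log2 signal of the 7 fibroblast markers (Col1a1, Col1a2, Col3a1, Dcn, Lum, Postn and Thy1) was 0.40, -0.10, -0.99 and -1.44. Col1a1 itself was at 4.77, 3.81, 2.28 and 1.94 in that order. The summed signal of the 7 ranged from 12.6 to 33 in wild type and from 11.7 to 50.8 in R141C at day 0, and from 26.8 to 45.6 and from 20.7 to 70 at day 6. None of the 7 was at 0, and Lum was not well above background on 1 wild-type array at day 0. By summed signal, R141C replicate 1 was below wild-type replicate 2 at day 0. At day 6, R141C replicate 1 had the lowest mean of these markers (-0.53, against 1.46, 2.16 and 2.68) and the highest Cdkn2a (2.38). Cdkn2b was lowest on that array (-1.49). Its order differed from that of the markers only in which of R141C replicate 2 and wild-type replicate 2 was higher. The part of the fibroblast markers in the levels of the inhibitors was not tested.

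The regulators of transcription held the N-Myc and c-Myc genes, which drive growth and cell cycle entry in stem cells, besides E2F and Rb family genes. Mycn was at 5.29 and 4.79 in wild type and 4.98 and 4.89 in R141C at day 0, and at 3.99 and 3.82 in wild type and 3.80 and 4 in R141C at day 6. The days lay apart in both genotypes. It fell 2.20-fold in wild type (-1.14, SE 0.23, adjusted p in limma 0.0155) and 2.05-fold in R141C (-1.04, SE 0.23, adjusted p 0.0288), where 10 of 18 alternatives kept the call.

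Myc was at 2.12 and 2.67 in wild type and 2.12 and 2.10 in R141C at day 0, and at 1.20 and 1.20 in wild type but 2.68 and 2.16 in R141C at day 6. As for Ccnd1, the wild-type day 6 arrays were the lowest of the 8. Myc fell 2.29-fold in wild type (-1.19, SE 0.27, adjusted p in limma 0.0213), and in R141C it differed by 0.31 (SE 0.27, adjusted p 0.477). E2f1, E2f2, Rb1 and Rbl2 differed by -0.62, -0.61, -0.12 and -0.95 in wild type. In R141C they differed by 0.53, 0.01, 0.02 and 0.33, and none passed in either genotype. All 6 regulators were below 0 in wild type (median -0.79, against -0.12 over all genes). In R141C 1 was below 0 (median 0.16, against -0.03), and none of the regulators passed in the interaction.

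Between genotypes at day 6, 0 of the 50 genes passed in limma, against 0.0657% of all genes (0.027% higher and 0.0386% lower in R141C), and 2 had an unadjusted p under 0.05, against 8.53% of all genes. These were Ccnd1, 2.04-fold higher in R141C by a difference of 1.03 (SE 0.21, unadjusted p in limma 0.00211, adjusted p 0.276), and Myc, 2.33-fold higher by 1.22 (SE 0.27, unadjusted p in limma 0.00294, adjusted p 0.307). Both R141C arrays were above both wild-type arrays for each gene. Over the alternatives run, the adjusted p ranged from 0.178 to 0.988 for Ccnd1 and from 0.118 to 0.957 for Myc. Next by p were E2f1 (0.61), Cdc25b (-0.38) and Ccnd3 (0.44), with adjusted p of 0.66 or more.

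E2f1, the activator E2F of the G1 to S transition, was at 1.67 and 1.74 in wild type and 2.55 and 2.08 in R141C at day 6. Ccnd3 was at 5.63 and 5.91 against 6.05 and 6.38, and Cdc25b at 1.86 and 2.14 against 1.63 and 1.61. The genotypes did not overlap for these 3 genes. Over the whole set they did not overlap for 19 of 50 genes (38%), against 44.3% of all genes.

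The signs of the genotype differences at day 6 depended on how arrays were scaled. Of the 50, 34 were above 0, but 28 were after quantile normalization and 22 after a median shift, and the median of all genes moved from 0.07 to 0.02 and -0.02. The mitosis genes were highest on R141C replicate 1 for 11 of 13, the array with the fewest heart marker transcripts, where 43.2% of all genes were highest too. Without that array, 6 of the 13 were above wild type, where 10 were with both. For the genes highest on that array, leaving it out had to lower the R141C value, so this drop is no separate support. Kif11, a spindle motor, was at 2.32 on that array and 1.06 on its replicate, against 1.23 and 1.06 in wild type. The part of the markers in these levels was not tested.

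At day 0, 0 of the 50 genes passed between genotypes in limma, as did 0 of all genes (0%), and 1 had an unadjusted p under 0.05, against 4.5% of all genes. That gene was Rbl2 (p130), the Rb family member of resting cells, at -2.92 and -2.85 in wild type and -3.74 and -4.38 in R141C, 2.26-fold lower (-1.18, SE 0.35, unadjusted p in limma 0.013, adjusted p 0.999). The next by p were E2f2 (-1.20), Cdkn2a (1.62), Bub1 (-0.43) and Ccnd2 (0.96), each with an adjusted p of 0.999. E2f2 was at 1.29 and 2.82 in wild type and 1.08 and 0.62 in R141C, and Bub1 at 3.08 and 3.41 against 2.84 and 2.79. The genotypes did not overlap for 11 of 50 genes (22%), against 28.8% of all genes.

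The S phase genes at day 0 were lowest in a single culture. R141C replicate 2 was the lowest of the 4 day 0 arrays for 12 of the 12 S phase genes, where it was the lowest for 38.1% of all genes. Mcm5 was at 6.33 and 6.39 in wild type and 6.61 in R141C replicate 1, but 5.42 in R141C replicate 2, and Cdt1 at 6.31, 5.91, 6.41 and 5.36 in the same order. With both R141C arrays, all 12 genes were below wild type with a median of -0.15, and without R141C replicate 2, 10 of the 12 were above it with a median of 0.16. That array was left out after it was seen to be the lowest for these genes. Leaving it out therefore had to raise every R141C value, and the change of sign is no separate support. Over all 50 genes, 36 were below wild type with both arrays and 21 without R141C replicate 2.

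The same culture was also the lowest or the highest at day 0 in other genes of the cycle and in markers. Among genes outside the set, it was the lowest of the 4 day 0 arrays for 27 of 31 replication genes and 31 of 38 mitosis genes. It had the highest Cdkn1a, Cdkn2a and Cdkn2b, the lowest mean log2 signal of the undifferentiated markers (4.42, against 5.02 and 5.63 in wild type and 4.97 in R141C replicate 1) and the highest of the fibroblast markers. Wild-type replicate 2 lay at the other end of both marker lists. It was the highest for 25 of 38 mitosis genes and 12 of 31 replication genes outside the set, against 29% of all genes. The part of these markers in the S phase levels was not tested. Without R141C day 0 replicate 2, all 12 S phase genes were lower at day 6 than at day 0 in R141C, with a median of -0.52, where 9 were with it. The mean log2 signal of the S phase genes was 5.39 in R141C day 0 replicate 1 and 4.73 in replicate 2. At day 6 it was 4.97 and 4.70 in R141C, so replicate 2 lay between the day 6 arrays. The day difference in R141C thus depended on which day 0 culture was used.

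**Figure D4:**
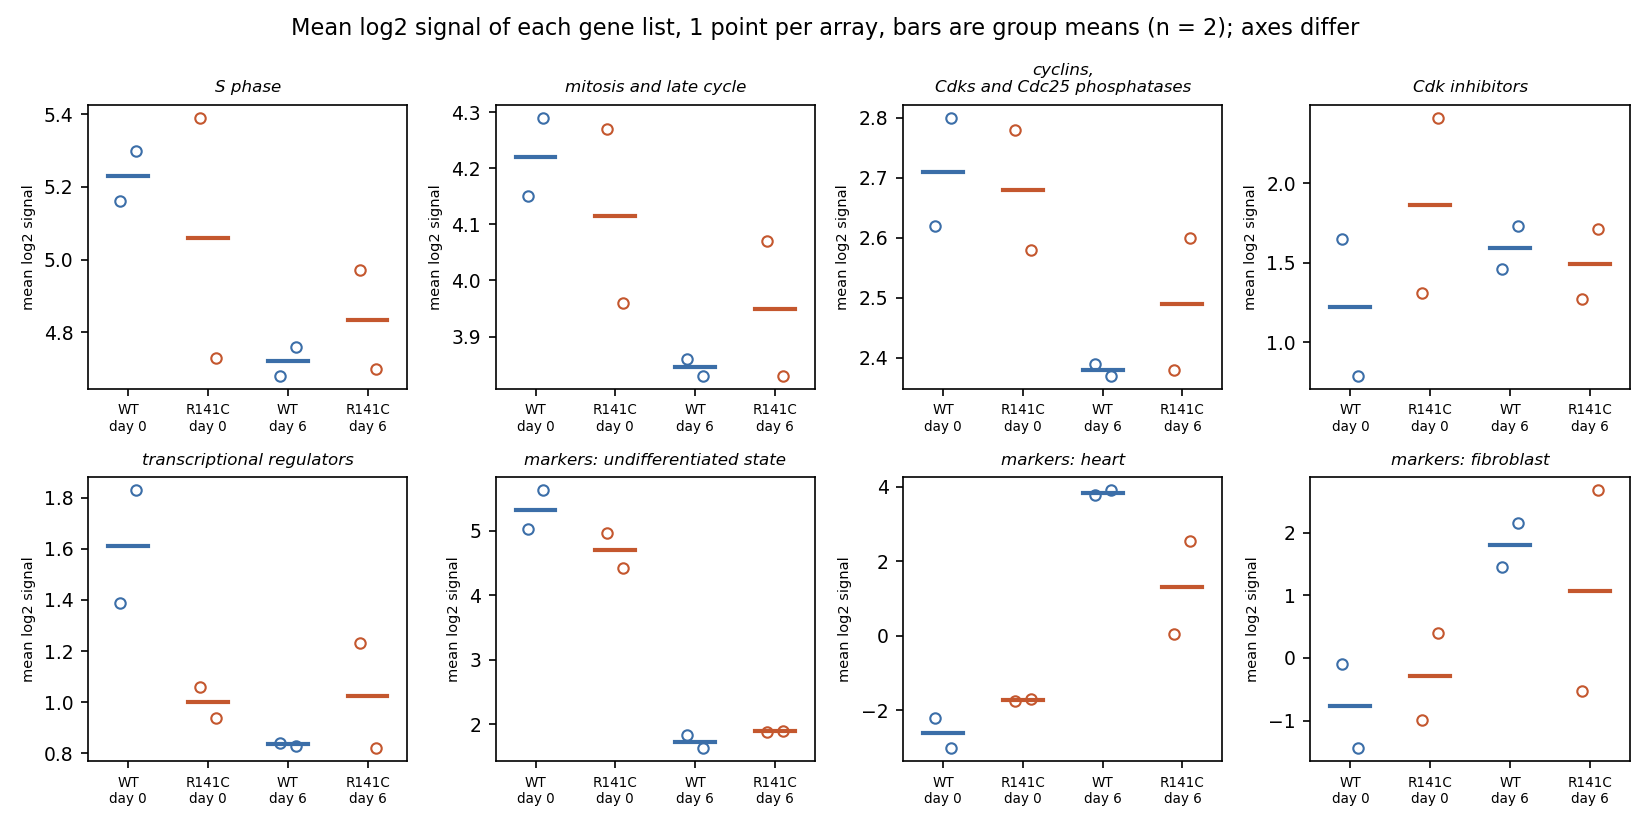
Mean log2 signal (vertical axis, own range per panel) of the 5 role groups and of 3 marker lists on each array; circles are arrays and bars are means of 2 arrays. At day 0, R141C replicate 2 has the lowest S phase mean (4.73, against 5.16 to 5.39) and the highest means of Cdk inhibitors (2.41) and fibroblast markers (0.40).

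Whether the change between the days differed between genotypes was tested as an interaction. In limma, 0 of the 50 genes passed, as did 0 of all genes (0%), and 4 had an unadjusted p under 0.05, against 5.64% of all genes. The smallest p was that of Myc, whose genotype difference at day 6 exceeded that at day 0 by 1.51 (SE 0.38, unadjusted p in limma 0.00581, adjusted p 0.714), followed in order of p by Ccnd1 (1.03, SE 0.30, unadjusted p in limma 0.012, adjusted p 0.761). E2f1 gave 1.16 and Rbl2 1.28, with adjusted p of 0.866 and 0.874. The falls of Myc, Ccnd1, Cdk6 and Cdc20 in wild type are therefore not shown to differ from the changes in R141C. The wild-type and R141C values at the same day enter both the day and the genotype comparisons, so these are not independent.

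Further genes of the same pathways were taken from lists that share no gene with the set. Their counts stand against the shares of all genes that passed, which were 11% higher and 12.9% lower in wild type and 7.6% higher and 8.03% lower in R141C. Among 31 replication genes, 6 fell in wild type, with a median of -0.54, and 1 fell in R141C, with a median of -0.12. Orc1 and Orc2, subunits of the origin recognition complex, fell by 1.61 and 1.51 on the log2 scale in wild type (adjusted p in limma 0.00811 and 0.022), and the clamp loader subunit Rfc5 fell in both genotypes, with differences of -1.1 and -0.83.

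Among 38 further mitosis genes, 0 rose and 9 fell in wild type (12.9% of all genes fell) and 0 rose and 5 fell in R141C (8.03% of all genes fell), with medians of -0.50 and -0.25. The cytokinesis genes Ect2 (-1.28 and -1.1) and Anln (-1.21 and -1.12) fell in both genotypes, as did Ube2c (-1.15 and -0.83), which feeds ubiquitin to the anaphase-promoting complex, and Espl1 (-1.14 and -1.04), the protease that cuts cohesin. Ect2 was at 3.99 and 3.95 in wild type and 3.96 and 3.70 in R141C at day 0, and at 2.74, 2.63, 2.71 and 2.74 in the same order at day 6, so the days lay apart in both genotypes. Among 13 further cyclins, Cdk activators and inhibitors, Ccnf fell (-0.82) and the inhibitor Cdkn2d rose (0.65) in wild type, and 0 passed in R141C in limma, with 1 at an unadjusted p under 0.05.

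Of 19 other regulators of the E2F, Rb, MuvB and Myc families, 18 were tested, and 2 rose and 2 fell in wild type against 1 and 2 in R141C, which is near the shares of all genes (11% and 12.9%, and 7.6% and 8.03%). Mybl2 (B-Myb), a partner of the MuvB complex at mitotic promoters, was at 6.64 and 7.13 in wild type and 6.46 and 6.17 in R141C at day 0, and at 4.26 and 4.21 in wild type and 4.68 and 4.52 in R141C at day 6. The days lay apart by more than 1 unit in each genotype, and the falls were 6.27-fold (-2.65, SE 0.24, adjusted p in limma 0.000959) and 3.29-fold (-1.72, SE 0.24, adjusted p 0.006). E2f8, a repressor E2F, fell in both (-1.37 and -1.29) and Mycl, the third Myc family gene, rose in both (0.89 and 0.84). Mxd4, which competes with Myc for Max, rose in wild type (2.19) and did not pass in R141C. In the interaction, 0 genes of this list passed.

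Of 16 genes of p53 and its targets, 4 fell and 0 rose in wild type, where 12.9% of all genes fell and 11% rose. In R141C 2 fell and 1 rose, near the shares of all genes (8.03% and 7.6%). Trp53 itself fell in wild type (-1.59, adjusted p in limma 0.0147), and its difference of -0.99 in R141C missed the threshold (adjusted p 0.0871). Perp and the growth arrest gene Gadd45a fell in both genotypes, by 2.04 and 1.62 in wild type and by 2.86 and 1.98 in R141C on the log2 scale, Sesn2 fell in wild type (-1.21), and Sesn1 rose in R141C (1.12). None of these 5 lists had a gene past the threshold of limma between genotypes or in the interaction.

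Probes of the same gene mostly read the same sign. Beside the probes used, 14 of the 50 genes had further probes, 19 in all, of which 16 in wild type and 15 in R141C had the sign of the probe used for the difference between the days. Those that did not belonged to Cdc6, Cdkn1a and Cdkn2b in wild type and to Cdc6, Cdk1, Cdk4 and Cdkn1a in R141C.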

How the data were processed

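The members and gene lists were chosen with earlier results of these data known. Agilent Feature Extraction produced the deposited scanner files, in version 11.5.1.1 per the file headers and 10.5.1.1 per the submitters' processing notes. They give the processed signal as a linear intensity, deposited after background subtraction within the array and without normalization between arrays, and mean spot and local background signals are deposited as intensity values too. The deposited spot flags (other) are 0 or 1. The deposited series matrix holds log2 values whose array medians were 8.99 to 9.04, with their normalization not given in the sources used here. It correlated with log2 of the processed signal at r of 0.9995 to 0.9999.

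Control and outlier spots (131 to 251 per array) were left out. Between 30989 and 39185 probes per array were well above background (55.75% to 70.5%), and none was saturated. Processed signals were taken to log2 and each array's 75th percentile (936.3 to 1848) was set to 0. The brightest probe by mean stood for a gene, and genes whose probe cleared the background flag on both replicates of some group were tested (25892). Levels of different probes were not compared. The model had 4 group means over all 8 arrays, fitted with limma 3.58.1 in R 4.3.3, with 4 residual and 2.7 prior degrees of freedom, two-sided tests and Benjamini-Hochberg adjustment over 25892 genes, and it was tested on simulated data. With 2 cultures per group, p-values rest on a spread estimated over all 4 groups. In each role group and day comparison, values on every array are given for up to 4 passing members with the largest change and for every Cdk inhibitor, and between genotypes for passing members or else some or all of the 5 with the smallest p. Other array values (Mcm2, Mcm5, Cdt1, Mki67, Kif11, Ect2, Mybl2, Col1a1) were chosen after they were seen. The alternatives were other normalizations, background corrections, filters, probe rules, variance models and fits, and leaving out each array. The result of 1 gene of the replication list is not reported here. Promoter windows came from RefSeq on GRCm38.p6, and Python 3.11.15 drew the figures.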

Additional observations from a re-analysis of the deposited data

How the results depend on the processing

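Between genotypes at either day, and in the interaction, 0 of the 50 genes passed under every alternative run. Between the days, the count in wild type stayed between 8 and 12 under the alternatives that kept all arrays (main 8), and in R141C it was 7 with trend and robust settings, 2 with only the arrays compared and 3 to 6 otherwise (main 4). Leaving out each array in turn gave 1 to 8 genes in wild type, 1 to 4 in R141C and 0 to 0 in the other comparisons; these fits assume that the lone array left in a group varies like the other groups. Over 18 alternatives, Ccne1 kept its call in 18 of 18 in each genotype. In wild type, Cdk6 kept it in 17, Ccnd1, Ccnd2, Mycn and Myc in 15, and Ccnb1 and Cdc20 in 14. In R141C, Cdkn1b kept it in 14, Mycn in 10 and Ccnb1 in 6. No gene that had passed changed sign. Under at least 1 alternative, Mcm2, Mcm5, Aurka, Mad2l1, Rbl2 and Cdkn1b also passed in wild type, and Ccnd2, Cdk6 and Mad2l1 in R141C. That these genes did not pass in the main fit therefore depended on the settings too.

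No label says that the replicate numbers pair the cultures, and they were not taken as pairs. Replicate differences correlated between groups, across genes, from -0.14 (the day 0 groups) to 0.34 (the R141C groups). With the replicate number as a block, 9 genes passed in wild type, 3 in R141C, where Ccnb1 no longer passed, and 0 in each other comparison. With the R141C day 0 numbers crossed, an alternative added after the data were seen, 0 passed between genotypes at day 0. All arrays were on 1 slide, so no slide block could be fitted. All members were well above background, so no member's value was a bound set by background.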
